A study of Mus musculus with 20 samples.

Results

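Granule cells of the dentate gyrus are the principal neurons at the entrance of the hippocampus, and 9 genes used as their markers were followed here: Prox1, C1ql2, Lct, Dsp, Il16, Calb1, Tdo2, Glis3 and Trpc6. They were chosen by name from the 55487 gene entries counted. Their levels in both tissues and their hippocampal treatment differences in these libraries were known at that point, and both are treated as values on which the genes were selected. Poly(A) RNA of the hippocampus and the cortex of NMRI mice, an outbred stock, had been sequenced in 20 libraries, 5 for each tissue and treatment. All animals had lost their olfactory bulbs by surgery (olfactory bulbectomy, which in mice is followed by features likened to sporadic Alzheimer's disease), and from day 14 after it they were given a protein through the nose once a day for 21 days. The protein was recombinant human HSP70, the heat shock chaperone (4 µg), in the HSP70 groups and recombinant YB-1, a nucleic acid-binding cold shock protein (6.4 µg), in the YB-1 groups. Operated animals without a protein and unoperated animals were not analysed here, so each treatment comparison sets YB-1 against HSP70 only. The age of the animals is not given in the sources used here, and the labels do not name the animal behind a library, so that p-values measure the spread between these samples.

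A granule cell receives input from the entorhinal cortex and sends a mossy fibre to the pyramidal cells of the CA3 field. It is one of the few neurons that continue to be made in the adult mouse brain. As a granule cell matures it replaces calretinin, the product of Calb2, with calbindin, the product of Calb1, and Dsp and Tdo2 are likewise known as genes of mature granule cells. In a piece of bulk tissue a marker reports the share of the cells and the amount of its RNA in each of them, and fewer cells of a type cannot be told apart from less RNA per cell. None of the 9 genes is restricted to the granule cell in the whole brain: calbindin, for example, is also abundant in upper-layer cortical neurons and in interneurons.

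Levels are given as CPM, the usual depth-scaled read count of a gene, after TMM scaling of the library sizes. Assigned reads ranged from 7236195 to 13053910 in the hippocampal libraries. In the cortex the HSP70 libraries (12283392 to 15148078 reads) and the YB-1 libraries (6414215 to 10763465 reads) did not overlap in depth, so that a separate handling of these libraries cannot be told apart from the treatment. The short neuronal RNA Bc1 accounted for 3.92% to 20.8% of assigned reads.

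Of the 9 genes, Prox1, C1ql2, Lct, Dsp and Il16 were higher in every hippocampal library than in any cortical library. Calb1 was lower in the hippocampus on average, with overlapping ranges (36.7 to 69.5 CPM there and 42.3 to 133 CPM in the cortex). The ranges of Tdo2, Glis3 and Trpc6 overlapped between the tissues as well. Because the genes are hippocampal markers by choice and their levels were known, these differences are a description and no test is drawn from them. Of the 14616 genes compared between the tissues, 3.01% had ranges without overlap, and 1.62% had all hippocampal libraries above all cortical ones and 1.39% all below. By edgeR's quasi-likelihood test at an adjusted p of 0.05, 15.9% of the genes differed between the tissues (8.55% higher and 7.32% lower in the hippocampus), and the count of members among them, 6 of the 8 that passed the low-count filter (5 higher and 1 lower), follows from the choice and supports nothing. Tdo2 did not pass the filter, and Dsp passed it only with the hippocampal libraries included. A higher level in the hippocampus is not particular to granule cell genes: 9 of 9 choroid plexus markers (median log2 fold change 3.36), 7 of 7 oligodendrocyte markers (median 1.20) and 4 of 8 CA1 markers were called higher there in the same fit.

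Promoter sequences are shown for C1ql2, Lct and Dsp, the members with separated tissues that have a single entry each in the RefSeq promoter table of GRCm38.p6, an earlier assembly than the GRCm39 of the counts. Each run holds the 250 bases before the annotated start, 5′ to 3′ on the gene's strand. Capitals mark E-boxes (CANNTG), the letters bound by basic helix-loop-helix factors such as those of neurons.
C1ql2, chr1:120340332-120340581, plus strand: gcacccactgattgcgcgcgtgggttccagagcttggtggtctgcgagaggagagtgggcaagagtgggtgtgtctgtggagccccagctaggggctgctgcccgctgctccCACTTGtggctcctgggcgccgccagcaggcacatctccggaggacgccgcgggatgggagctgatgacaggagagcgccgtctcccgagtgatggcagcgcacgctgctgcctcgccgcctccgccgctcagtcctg
Lct, chr1:128328319-128328568, minus strand: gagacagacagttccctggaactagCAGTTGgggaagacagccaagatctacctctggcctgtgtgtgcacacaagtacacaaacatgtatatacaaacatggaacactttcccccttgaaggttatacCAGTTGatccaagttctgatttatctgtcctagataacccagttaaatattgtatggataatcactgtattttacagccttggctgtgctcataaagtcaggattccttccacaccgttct
Dsp, chr13:38151044-38151293, plus strand: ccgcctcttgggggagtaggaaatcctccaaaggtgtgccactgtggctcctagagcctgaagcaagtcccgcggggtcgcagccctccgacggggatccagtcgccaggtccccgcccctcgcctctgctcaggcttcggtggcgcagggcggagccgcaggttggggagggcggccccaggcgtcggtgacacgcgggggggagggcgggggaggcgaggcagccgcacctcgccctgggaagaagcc
The stretches differ in composition. That of Dsp held 22 CpG dinucleotides and that of C1ql2 held 20, whereas that of Lct held 1, against a median of 6 over the 32851 promoter entries of the table. The G and C share was 72.4% for Dsp, 68.8% for C1ql2 and 42.8% for Lct, with a median of 52.4% over all entries. An E-box occurred once in the C1ql2 run, at 2 places in the Lct run and at none in the Dsp run, and 66.2% of all entries hold at least 1. The GC box GGGCGG, searched on both strands, was at 4 places in the Dsp run and absent from the other two, and 32.7% of all entries hold it. Neither TATAAA (12.4% of entries, both strands) nor the cAMP response element TGACGTCA (1.55%) was found in the 3 runs. These matches describe letters, not bound sites. Table entries were found for 8 of the 9 members.

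**Figure D1:**
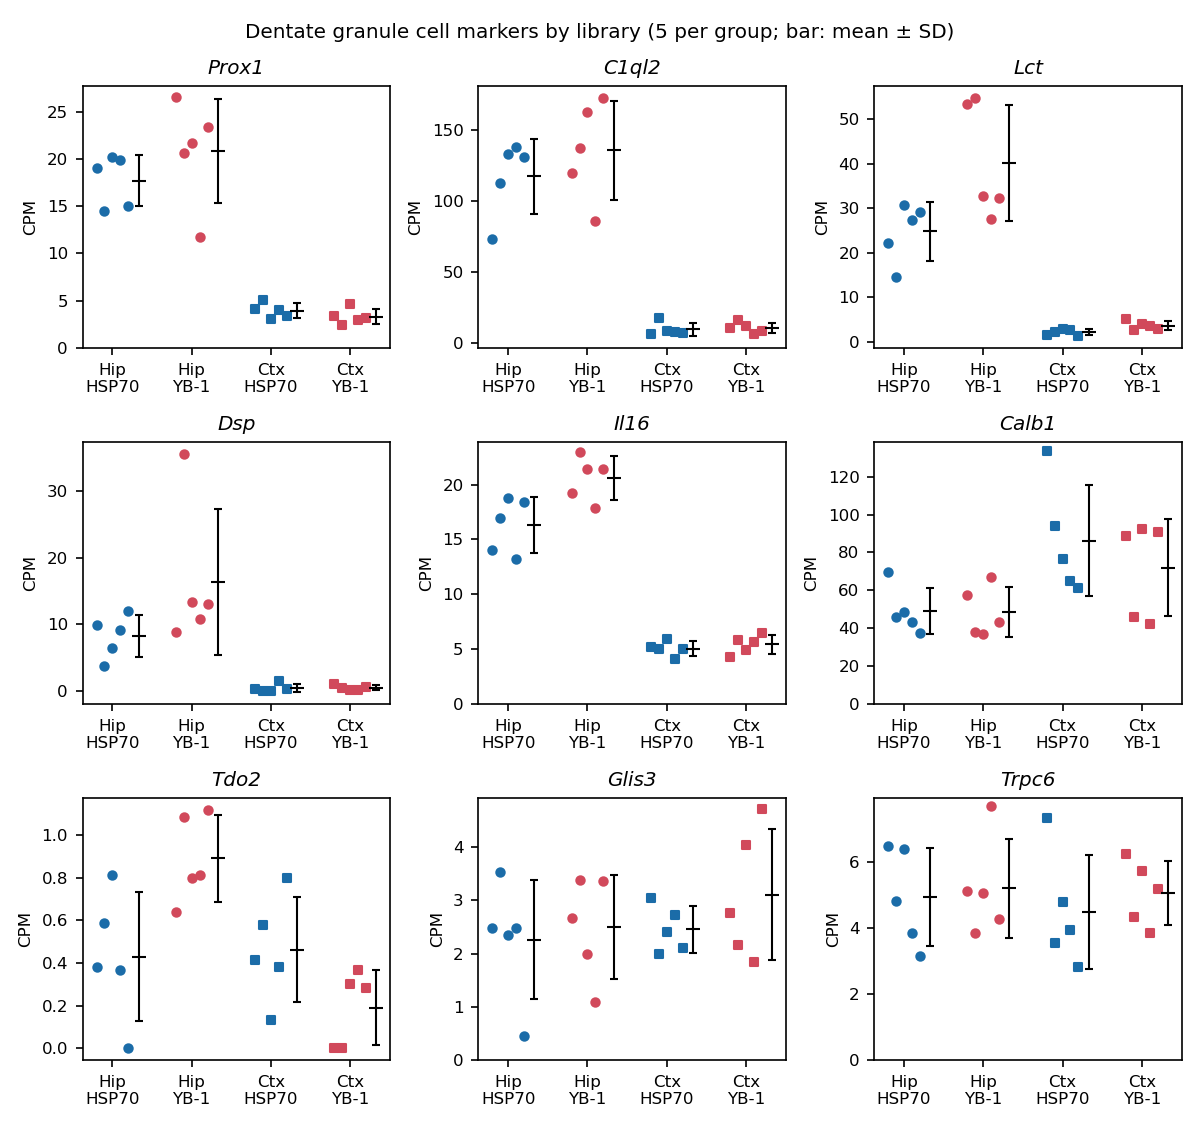
Level of each marker in CPM (y axis) in the hippocampus (Hip, circles) and cortex (Ctx, squares) with HSP70 (blue) or YB-1 (red); each point is 1 library and the black bar is the mean with its SD (5 libraries). The hippocampal points of Prox1, C1ql2, Lct, Dsp and Il16 lie above all cortical points, and Calb1 is at 48.8 CPM on average in the hippocampus and 79.1 CPM in the cortex.

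Prox1 (ENSMUSG00000010175) encodes the homeodomain transcription factor on which the identity of granule cells depends. With HSP70 its hippocampal level was 19.0, 14.5, 20.1, 19.8 and 15.004 CPM in replicates 1 to 5. With YB-1 it was 26.5, 20.6, 21.7, 11.8 and 23.4 CPM. The lowest of the 10 values, in YB-1 replicate 4, and the highest, in YB-1 replicate 1, thus belonged to the same treatment, and the groups overlapped. In the cortex it ranged from 3.07 to 5.12 CPM in the HSP70 group and from 2.44 to 4.64 CPM in the YB-1 group. Hippocampus against cortex gave a log2 fold change of 2.40 ± 0.16 (SE), and the gene was higher in the hippocampus in 10 of 10 animals. Here and below, same-numbered libraries of the tissues were treated as 1 animal, which is an assumption. Prox1os, an annotated antisense partner, was itself at 0.839 to 4.87 CPM in the hippocampus, and since the strand setting of the counting is not given, reads of the pair cannot be told apart with certainty.

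Glis3 (ENSMUSG00000052942), a zinc finger transcription factor, did not separate the tissues. Its hippocampal values were 2.48, 3.53, 2.34, 2.48 and 0.450 CPM in the HSP70 group and 2.67, 3.38, 1.996, 1.08 and 3.35 CPM in the YB-1 group. HSP70 replicate 5, with 3 reads, was the lowest of all 20 libraries. The cortical means were 2.45 ± 0.44 CPM in the HSP70 group and 3.10 ± 1.23 CPM in the YB-1 group (SD, n = 5). Glis3 was higher in the hippocampus in 2 of 10 animals, with a log2 fold change between tissues of -0.21 ± 0.27 (SE).

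C1ql2 (ENSMUSG00000036907) encodes a secreted C1q-like protein that mossy fibres release at their synapses on CA3 cells, and it was the most abundant member of the hippocampus. Its values there were 73.5, 113, 133, 138 and 131 CPM in the HSP70 group and 119.8, 138, 162, 85.6 and 173 CPM in the YB-1 group. HSP70 replicate 1 and YB-1 replicate 4 were the lowest library of their groups, and the groups overlapped. In the cortex the values were 6.30, 17.8, 8.48, 7.59 and 7.10 CPM in the HSP70 group and 10.7, 15.98, 11.6, 5.86 and 8.38 CPM in the YB-1 group, replicate 2 being the highest of both groups. The tissues differed by a log2 fold change of 3.66 ± 0.21 (SE), and the hippocampus was higher in 10 of 10 animals.

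Dsp (ENSMUSG00000054889) encodes desmoplakin, which ties the desmosomes of epithelia and heart to intermediate filaments and which marks mature granule cells in the brain. In the hippocampus it was at 9.92, 3.77, 6.41, 9.19 and 12.003 CPM with HSP70. With YB-1 it was at 8.87, 35.6, 13.3, 10.8 and 13.1 CPM. YB-1 replicate 2 lay far above the other YB-1 libraries, while the remaining libraries of both groups overlapped. Its cortical values were 0.346, 0, 0, 1.44 and 0.362 CPM for HSP70 and 1.07, 0.406, 0.101, 0.183 and 0.565 CPM for YB-1. These rest on 0 to 19 reads per library, and Dsp was at 0 in 2 HSP70 libraries, replicates 2 and 3, whose depths allow up to 0.248 and 0.200 CPM (3 reads). The log2 fold change between the tissues, 4.62 ± 0.47 (SE), was the largest of the members, and it rests on these few cortical reads.

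Calb1 (ENSMUSG00000028222) encodes calbindin, a calcium buffer of mature granule cells. Its hippocampal values were 69.5, 46.0, 48.5, 43.3 and 37.7 CPM in the HSP70 group and 57.4, 38.1, 36.7, 67.2 and 43.3 CPM in the YB-1 group. HSP70 replicate 1 and YB-1 replicate 4, the libraries lowest in C1ql2, were the highest in Calb1. Its cortical level was 133, 93.7, 76.6, 65.2 and 61.5 CPM in the HSP70 group and 88.4, 46.0, 92.6, 42.3 and 90.9 CPM in the YB-1 group. Against the cortex the hippocampal log2 fold change was -0.69 ± 0.18 (SE), and the cortex was higher in 9 of 10 animals. Calb1 is also a member of the list of upper-layer cortical neurons used below.

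Trpc6 (ENSMUSG00000031997), a cation channel opened by diacylglycerol, was about as high in the cortex as in the hippocampus. Its range was 3.15 to 6.49 CPM in the HSP70 group and 3.86 to 7.71 CPM in the YB-1 group in the hippocampus. Cortical values ran from 2.83 to 7.33 CPM and 3.85 to 6.24 CPM. The log2 fold change between the tissues was 0.08 ± 0.19 (SE), with a sign that turned when libraries were thinned to the same depth (-0.03), and 4 of 10 animals were higher in the hippocampus.

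Lct (ENSMUSG00000026354) encodes lactase, the intestinal enzyme that splits milk sugar, and its RNA is a marker of granule cells in the mouse brain. With HSP70 it was at 22.2, 14.6, 30.7, 27.4 and 29.3 CPM in the hippocampus. With YB-1 it was at 53.5, 54.8, 32.7, 27.6 and 32.2 CPM. Replicates 1 and 2 of the YB-1 group were the highest, and YB-1 replicate 4 lay within the HSP70 range. In the cortex Lct was at 1.66, 2.15, 2.94, 2.66 and 1.30 CPM in the HSP70 group and at 5.17, 2.57, 4.03, 3.67 and 2.92 CPM in the YB-1 group, so that 2 YB-1 libraries lay within the HSP70 range. The log2 fold change between the tissues was 3.48 ± 0.19 (SE), and all 10 animals were higher in the hippocampus.

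Tdo2 (ENSMUSG00000028011) encodes tryptophan 2,3-dioxygenase, the first enzyme of the kynurenine pathway, and it was the least abundant member. Between 0 and 12 reads per library were assigned to it. Its hippocampal values were 0.382, 0.589, 0.814, 0.365 and 0 CPM in the HSP70 group and 0.641, 1.09, 0.799, 0.811 and 1.12 CPM in the YB-1 group. The library at 0, HSP70 replicate 5, has a depth that allows up to 0.450 CPM. Cortical levels were 0.415, 0.578, 0.134, 0.379 and 0.797 CPM for HSP70 and 0, 0, 0.303, 0.367 and 0.283 CPM for YB-1, with 2 YB-1 libraries at 0 (replicates 1 and 2, allowing up to 0.267 and 0.406 CPM). Intervals and limits of this kind cover counting error only.

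Il16 (ENSMUSG00000001741) encodes the precursor of interleukin 16, of which a longer neuronal form exists beside that of lymphocytes. Its values were the least variable of the members in the hippocampus, with a coefficient of variation of 17.0% over the 10 libraries against 22.9% to 70.8% for the others. They were 14.0, 17.0, 18.8, 13.2 and 18.5 CPM in the HSP70 group and 19.2, 22.9, 21.4, 17.8 and 21.4 CPM in the YB-1 group. YB-1 replicate 4 alone lay within the HSP70 range. In the cortex it ranged from 4.10 to 5.95 CPM and from 4.28 to 6.50 CPM. For Il16 the tissues differed by a log2 fold change of 1.80 ± 0.12 (SE), in the same direction in 10 of 10 animals. Stard5, whose exons overlap those of Il16 on the other strand, was at 4.29 to 10.2 CPM in the hippocampus (mean 8.07). In the cortex it was at 3.83 to 7.935 CPM (mean 5.39), near the level of Il16 there. With the strand setting not given, the part of Stard5 reads in the Il16 values was not tested.

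**Figure D2:**
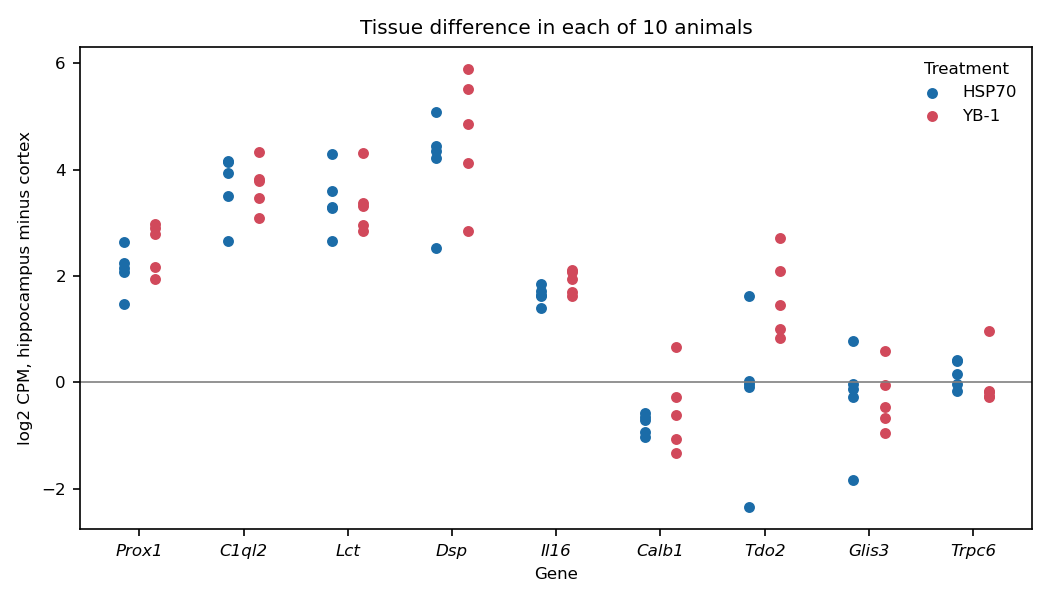
Difference in log2 CPM (y axis, prior count of 2) between hippocampal and cortical libraries of the same treatment and replicate number. Genes are on the x axis, and each point is 1 of 10 such pairs, treated as 1 animal. Points are blue with HSP70 and red with YB-1. All points of Prox1, C1ql2, Lct, Dsp and Il16 are above 0, and 9 of the 10 Calb1 points are below it.

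Per kilobase of exon, the order of mean levels in the hippocampus was C1ql2 (63.3 ± 15.3 CPM per kb, SD, n = 10), Calb1 (10.1 ± 2.47), Lct (5.07 ± 1.97), Il16 (2.34 ± 0.40), Prox1 (2.29 ± 0.53), Dsp (1.27 ± 0.90), Trpc6 (1.002 ± 0.28), Glis3 (0.269 ± 0.113) and Tdo2 (0.170 ± 0.089). Il16 and Prox1, Dsp and Trpc6, and Glis3 and Tdo2 are neighbours whose means differed by less than the larger of their SDs. In the cortex Calb1 came first at 16.3 ± 5.56 CPM per kb, followed by C1ql2 at 4.99 ± 2.03 and Trpc6 at 0.944 ± 0.270. There Dsp was last, at 0.0463 ± 0.0488 CPM per kb.

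Between the treatments, the hippocampal level of Lct, Dsp and Il16 was higher on average with YB-1, though for Dsp the difference of the means was smaller than the SD of the YB-1 group (8.26 ± 3.21 and 16.3 ± 10.9 CPM, n = 5). For Prox1, C1ql2, Calb1, Glis3 and Trpc6 it was smaller than the larger SD of the groups. Tdo2, at 0 to 12 reads per library, was also higher on average with YB-1 (0.430 ± 0.302 and 0.891 ± 0.204 CPM, n = 5), a difference above either SD, and its log2 fold change without the low-count filter was 0.998 ± 0.725 (SE). The log2 fold changes of YB-1 against HSP70 were 0.70 ± 0.23 for Lct, 0.99 ± 0.38 for Dsp, 0.34 ± 0.16 for Il16, 0.23 ± 0.20 for Prox1 and 0.21 ± 0.20 for C1ql2 (SE). They were -0.01 ± 0.20 for Calb1, 0.14 ± 0.44 for Glis3 and 0.07 ± 0.28 for Trpc6. These values were known when the members were chosen and are given with no test. Of the 8 members that passed the filter, 7 had a positive log2 fold change, with a median of 0.22, and over all 13723 genes 49.3% were positive, with a median of -0.0030. No member was called, as 0% of all genes were, and no member had groups without overlap (0.474% of all genes, 0.175% with all YB-1 libraries higher and 0.299% lower). edgeR's quasi-likelihood test gave 0 genes at an adjusted p of 0.05 and 329 (2.4%) at an unadjusted p under 0.05, and DESeq2 gave 0 and 390.

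Single libraries carried part of these hippocampal differences. Without YB-1 replicate 2 the log2 fold change of Dsp was 0.48. For Prox1 it was 0.13 without YB-1 replicate 1 and 0.38 without YB-1 replicate 4. For C1ql2 it was 0.079 without HSP70 replicate 1, 0.14 without YB-1 replicate 3, 0.33 without YB-1 replicate 4 and 0.10 without YB-1 replicate 5. When any 1 of the 10 libraries was left out, the value of Lct ranged from 0.55 to 0.80 and that of Il16 from 0.27 to 0.39. For Calb1, Glis3 and Trpc6 the sign turned on which library was left out.

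**Figure D3:**
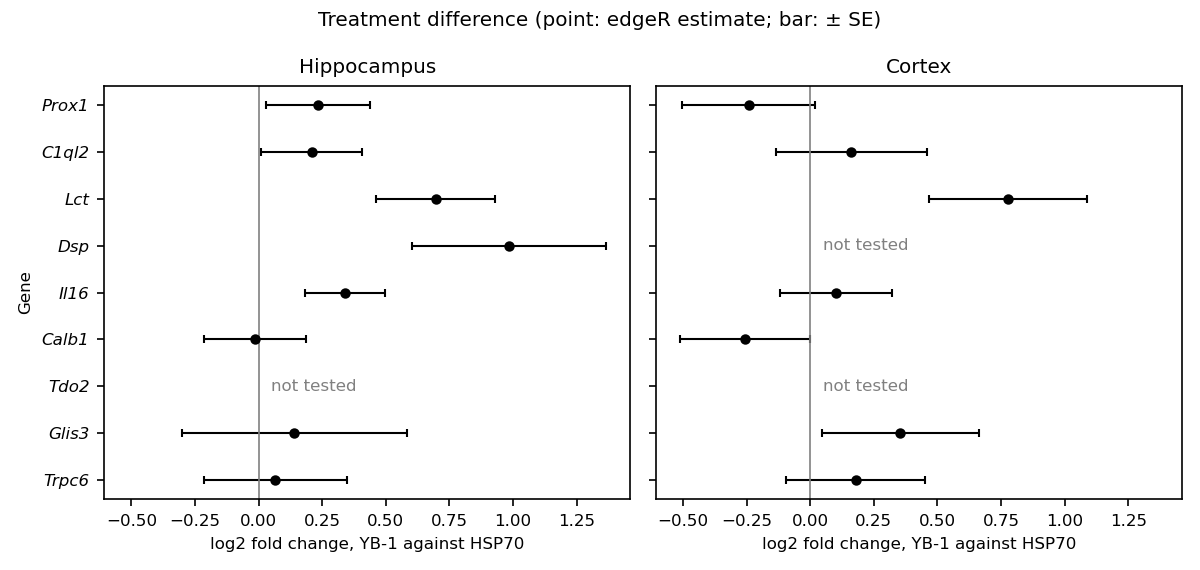
Log2 fold change of YB-1 against HSP70 (x axis) for each marker (y axis) in the hippocampus and the cortex; points are edgeR estimates from 5 libraries against 5 and bars are ± 1 SE. Lct lies at 0.70 and 0.78 in hippocampus and cortex, and Dsp lies at 0.99 in the hippocampus; Dsp and Tdo2 did not pass the low-count filter of the fit in the cortex, nor Tdo2 in the hippocampus.

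The library with the highest Dsp also stood out in another cell type. The 9 choroid plexus markers summed to 348 CPM in YB-1 replicate 2, against 33.8 to 141 CPM in the other YB-1 libraries, and to 438 CPM in HSP70 replicate 5, the HSP70 library with the highest Dsp, against 14.9 to 189 CPM in the other HSP70 libraries. Desmoplakin is also a protein of epithelia, and the part of choroid plexus tissue in the Dsp values was not tested. None of the 9 markers was at 0 in all libraries of a group. Markers of the meninges and arachnoid, 12 genes, lay at 1027 to 2078 CPM in the HSP70 group and at 662 to 1280 CPM in the YB-1 group in the hippocampus, with 11 of 12 log2 fold changes negative and a median of -0.50. Their sum in YB-1 replicate 2 was 832 CPM, and none was at 0 in all libraries of a group. The same replicate was the highest of the hippocampal YB-1 group in the summed activity-induced genes, a list headed by Fos, Arc and Egr1 (443 CPM against 212 to 289 CPM). Lct was also highest there, at 54.8 CPM, while Prox1, at 20.6 CPM, was second lowest of its group.

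**Figure D4:**
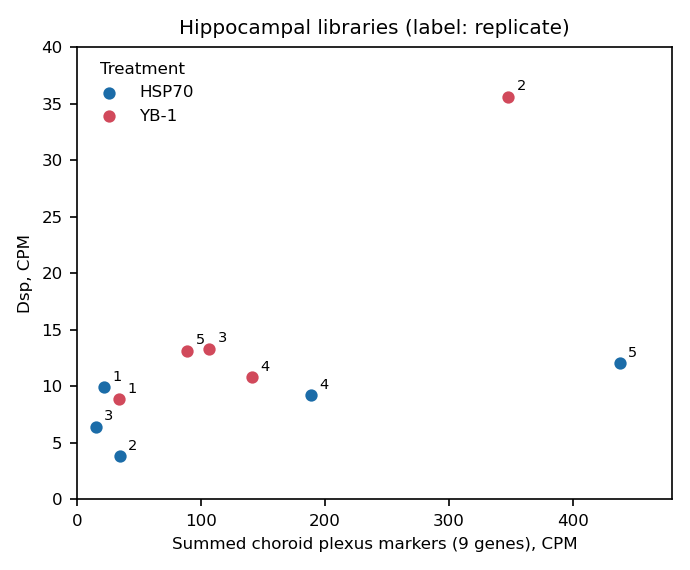
Dsp (y axis, CPM) against the summed level of 9 choroid plexus markers (x axis, CPM) in the 10 hippocampal libraries; blue points are HSP70, red points YB-1, and the number is the replicate. YB-1 replicate 2 lies at 348 and 35.6 CPM, and HSP70 replicate 5 at 438 and 12.003 CPM.

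In the cortex no member passed the test between the treatments. The cortical levels of the members were known at their choice, so their values and p-values here are a description. edgeR's quasi-likelihood test called 0 of the 7 members that passed the filter and 0 of 14114 genes (0%), with 774 genes (5.48%) at an unadjusted p under 0.05, and no member had groups without overlap (0.829% of all genes, 0.312% higher with YB-1 and 0.517% lower). DESeq2 called 4 genes (844 at an unadjusted p under 0.05), no member among them. On the positive side were 5 of the 7 members, with a median log2 fold change of 0.16, and 50.9% of all genes, with a median of 0.0050. The log2 fold change of Lct was 0.78 ± 0.31 (SE, 95% interval 0.12 to 1.43), with an adjusted p of 0.858 in edgeR's quasi-likelihood test (unadjusted 0.0223) and means of 2.14 ± 0.68 and 3.67 ± 1.02 CPM (SD, n = 5). It stayed between 0.61 and 0.92 when any 1 library was left out. The intervals of the other members reached from -0.79 to 0.31 for Prox1, from -0.46 to 0.78 for C1ql2, from -0.36 to 0.56 for Il16 and from -0.80 to 0.29 for Calb1. For Glis3 they reached from -0.30 to 1.01 and for Trpc6 from -0.40 to 0.75. The interval of Il16 was the narrowest of the 7. Dsp and Tdo2, which did not pass the filter, were compared with an exact permutation test of the means (two-sided, 252 ways to assign the libraries, lowest attainable p 0.0079). Dsp was at 0.430 ± 0.593 CPM in the HSP70 group and 0.465 ± 0.385 CPM in the YB-1 group (n = 5, exact p = 0.913). Tdo2 was at 0.461 ± 0.246 and 0.190 ± 0.176 CPM (n = 5, exact p = 0.0873).

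Whether the treatment difference depends on the tissue was examined in a model of all 4 groups. edgeR's quasi-likelihood test of this interaction called 0 of 14616 genes (0%), with 227 at an unadjusted p under 0.05, and 0 of 8 members. DESeq2 called 0, with 276 unadjusted. Since the hippocampal values known at the choice enter this contrast, the members' values are a description. They were 0.47 ± 0.31 for Prox1 and -0.09 ± 0.35 for Lct (hippocampal minus cortical log2 fold change, SE). That of Dsp, 0.76 ± 0.99, rests on 0 to 19 cortical reads per library.

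Other genes of the granule cell lay on both sides between the tissues. Of 13 further genes known from dentate granule cells, all of which were tested, 5 were higher in the hippocampus and 1 lower by edgeR's quasi-likelihood test (8.55% and 7.32% of all genes), with a median log2 fold change of -0.02. On the higher side the monoamine transporter gene Slc29a4 was at 1.505 ± 0.23, Dock10, a regulator of small GTPases, at 1.35 ± 0.19, the transcription factor gene Bcl11b at 0.65 ± 0.12 and Ahcyl2 at 0.39 ± 0.13. The kinase gene Plk5 was lower, at -0.60 ± 0.16. Stxbp6 was at -0.10 ± 0.19 and was not called. Between the treatments in the hippocampus 11 of the 13 were on the positive side, with a median of 0.14 (members 0.22, all genes -0.0030), and in the cortex 4 were, with a median of -0.18. None was called in either tissue.

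Genes of newborn and immature granule neurons were counted as well. Of the 9 tested in the hippocampus, 3 were on the positive and 6 on the negative side with YB-1, with a median of -0.22, and none was called. The list is not particular to granule neurons, and Tubb3 is also in the pan-neuronal list. Its median summed level was 806 CPM (HSP70) and 820 CPM (YB-1) in the hippocampus, and 925 and 878 CPM in the cortex. The treatment median therefore cannot be read as a value of newborn neurons. Dcx, which encodes doublecortin of migrating neurons, was at 1.64 ± 1.05 CPM in the HSP70 group and 1.40 ± 0.29 CPM in the YB-1 group (SD, n = 5). Sox11 was at 6.44 ± 1.71 and 7.29 ± 1.68 CPM. Calb2, which encodes calretinin, was at 103 ± 34.3 and 86.1 ± 22.0 CPM.

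Markers of the neighbouring hippocampal fields were taken next. The 8 genes of CA1 pyramidal cells had a median log2 fold change between the treatments of 0.02 and the 6 tested genes of CA2 and CA3 cells one of 0.03, with 0 called in each. Of the CA1 genes Wfs1 was at 0.27 ± 0.17, Fibcd1 at 0.02 ± 0.21 and Pou3f1 at 0.22 ± 0.23. Of the CA2 and CA3 genes Grik4 was at 0.01 ± 0.18, Amigo2 at 0.03 ± 0.15 and Pcp4 at 0.50 ± 0.19 (SE). The 6 tested mossy cell genes had a median of 0.20, and 8 pan-neuronal genes one of -0.0030. Of other cell types, choroid plexus genes (7 of 9 positive, median 0.22), lymphocyte genes (7 of 7, median 0.68), microglia (6 of 7, median 0.21) and endothelium (6 of 6, median 0.22) were mostly on the positive side in the hippocampus. Oligodendrocyte genes (0 of 7, median -0.17) were all on the negative side. GABAergic neuron (4 of 10, median -0.12), thalamic (4 of 8, median -0.01) and astrocyte genes (4 of 7, median 0.01) were split. So were upper-layer cortical (3 of 7, median -0.01) and activity-induced genes (5 of 10, median -0.09). No gene of these lists was called. The lymphocyte genes, markers of cells known to make interleukin 16, summed to 11.3 to 23.6 CPM in the HSP70 group and 11.9 to 44.4 CPM in the YB-1 group, with no gene at 0 in all libraries of a group, and their part in the Il16 values was not tested.

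Within the treatments, variation from animal to animal was compared between the markers. Over the 10 hippocampal libraries, the deviations of 2 members from their treatment means were correlated for each of the 36 pairs, with permutation within treatments (100000 resamples, two-sided) and adjustment over the pairs. Of the 36 values of r, 21 were positive and the median was 0.067. No pair passed after adjustment, and 4 had an unadjusted p under 0.05. For Calb1 and Trpc6 r was positive (r = 0.81, permutation p = 0.00437, adjusted 0.111; rho = 0.85, permutation p = 0.00485). For C1ql2 and Calb1 it was negative (r = -0.88, permutation p = 0.00617, adjusted 0.111; rho = -0.72, permutation p = 0.0394), as it was for C1ql2 and Trpc6 (r = -0.68, permutation p = 0.0429, adjusted 0.386; rho = -0.58, permutation p = 0.106). Tdo2 and Glis3 had r = 0.81 (permutation p = 0.0409, adjusted 0.386; rho = 0.76, permutation p = 0.018), and both were at their lowest in HSP70 replicate 5. That library had the fewest genes with a read of all 20 libraries (16889). Its Bc1 share, 20.3%, and that of YB-1 replicate 4, 20.8%, were the highest of all libraries. The part of Bc1 in these relations was not tested.

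These relations were smaller in size without the extreme libraries. Without the 2 libraries farthest from the median, r was 0.57 for Calb1 and Trpc6, -0.56 for C1ql2 and Calb1, -0.14 for C1ql2 and Trpc6 and 0.62 for Tdo2 and Glis3. Leaving out HSP70 replicate 5 alone lowered r of Tdo2 and Glis3 to 0.30. Over the 10 cortical libraries, given with no test, r of Calb1 and Trpc6 was 0.795. There it was 0.099 for C1ql2 and Calb1, -0.13 for C1ql2 and Trpc6 and 0.12 for Tdo2 and Glis3.

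**Figure D5:**
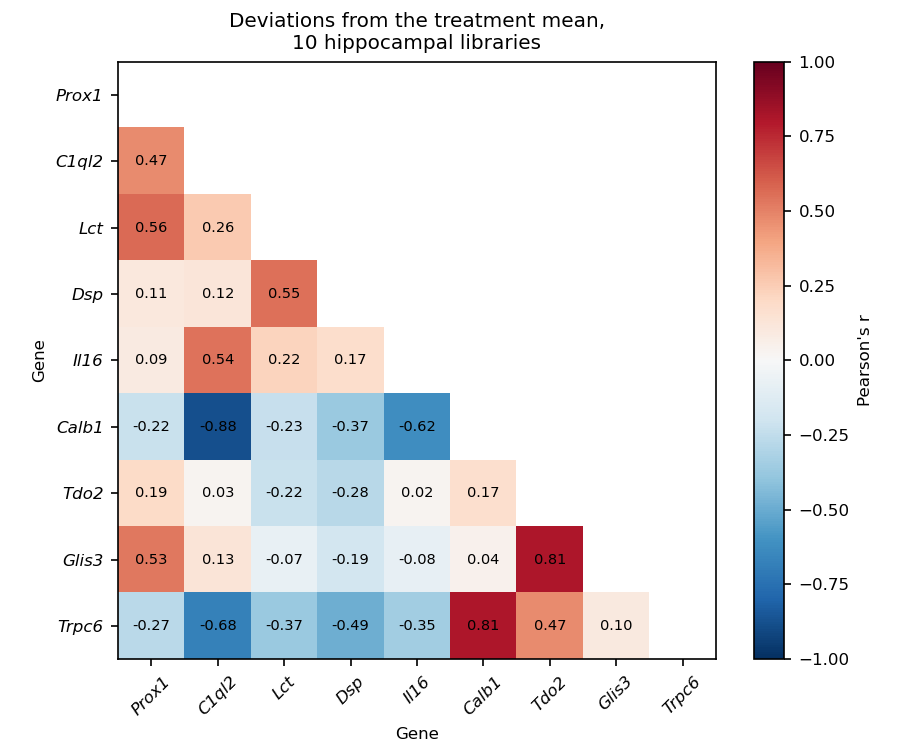
Pearson's r (colour and number) between the deviations of each pair of markers (x and y axis) from their treatment means in log2 CPM over the 10 hippocampal libraries. The pair C1ql2 and Calb1 is at -0.88 and the pair Calb1 and Trpc6 at 0.81, and no pair passed after adjustment over the 36.

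No correlation between the hippocampal and the cortical level of a member in the same animal passed the test. Same-numbered libraries of the tissues were treated as 1 animal, which the labels do not state. Over the 10 pairs r ranged from -0.43 for Tdo2 to 0.52 for Il16, with a lowest adjusted p of 0.591 (permutation within treatments, 9 relations). For Il16 rho was 0.44 and r without the 2 farthest animals 0.41.

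The genes most like the mean of the members within the hippocampus were then ranked. For this, 13970 other genes of at least 1 CPM were correlated with the mean standardised deviation of the 9 members over the 10 libraries. The members did not vary together (median r of the pairs 0.067), so likeness to this mean is not likeness to each member. The 5 with the highest r were the immunoglobulin segment Ighv5-17 (0.95), Lpin1, a phosphatidate phosphatase (0.94), Sptlc1, a subunit of serine palmitoyltransferase (0.93), Rufy1 (0.93) and Ikzf3, a transcription factor of lymphocytes (0.92). With so many genes and 10 libraries these values are a ranking, with no test. The members' own mean deviation was highest in HSP70 replicate 3 and lowest in YB-1 replicate 4.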

How the data were processed

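The authors deposited raw read counts for 55487 Ensembl genes in each library, followed by 12 summary lines. The submitters' processing notes name Trimmomatic, STAR, featureCounts and GRCm39, with no version; annotation release and strand setting: not given in the sources used here. Neither library sizes nor tests include the summary lines, in which unassigned reads outside genes had a share of 2.45% to 4.58% and ambiguous ones of 4.12% to 4.58%. Symbols, exon lengths and overlaps came from GENCODE M21, an annotation of GRCm38 (99.4% of identifiers matched). Depth was 6414215 to 15148078 assigned reads per library.

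Genes were tested across the whole table with edgeR 4.0.16 in R 4.3.3 (TMM, filterByExpr, robust quasi-likelihood, two-sided, Benjamini-Hochberg, threshold 0.05): treatments within each tissue, tissues and interaction over all 4 groups. Log2 CPM used a prior count of 2. Alternatives were RLE scaling, no filter, DESeq2 1.42.0, removal of Bc1 and immunoglobulin genes, thinning to the smallest library, a replicate block and leaving out each library. The 9 members, the 18 gene lists and the tests were chosen with earlier results of these data known. Named are the members, the first 3 genes of a list and the 5 genes most alike by correlation; Slc29a4, Bcl11b and Ahcyl2 are outside this rule and were chosen after their values were seen. The values of 1 further dentate gene are not reported here.

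Replicate numbers were checked over 13978 genes by correlating deviations from group means. Hippocampus and cortex of the same number correlated at 0.211 to 0.659 with HSP70 and at 0.221 to 0.417 with YB-1, each above 0.1. This cut does not identify an animal. Same-numbered libraries of different treatments also passed it, in 1 of 5 hippocampal pairs (r up to 0.524) and 3 of 5 cortical pairs. The same-numbered library was the closest match for 5 of 5 HSP70 pairs, but for only 4 of 5 YB-1 pairs. Same-numbered libraries of the tissues were treated as 1 animal, which remains an assumption.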

Additional observations from a re-analysis of the deposited data

Results flagged for a closer look

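Of 36 sets of 5 libraries (9 genes in 4 groups), 3 held a library whose gap to the nearest other exceeded 0.71 of the range, Dixon's 95% limit for 5 values; chance alone gives this in about 1 in 20 such sets. C1ql2 in the cortex with HSP70 was at 17.8 CPM in replicate 2, with the next library at 8.48 CPM. Dsp in the hippocampus with YB-1 was at 35.6 CPM in replicate 2, with the next at 13.3 CPM. Dsp in the cortex with HSP70 was at 1.44 CPM in replicate 4 (19 reads), with the next at 0.362 CPM.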

How the results depend on the processing

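In the comparison of tissues the 6 members called remained 6 under every alternative run, and 2080 to 2437 genes were called when 1 library was left out. With the animal as a replicate block 2888 genes and 6 members were called between the tissues, against 2320 and 6 without it. Between the treatments same-numbered libraries were not paired (r of deviations from -0.304 to 0.524 for hippocampal and from -0.155 to 0.189 for cortical pairs), and with the number as a replicate block 0 genes and 0 members were called in the hippocampus and in the cortex; the block changed no other call. For the cortical treatments edgeR called 9 genes without the low-count filter and 0 to 1 when 1 library was left out (1 without HSP70 replicate 3), against 0, DESeq2 called 4, and no member was called under any of these; the cause was not tested. No member was called in any hippocampal or interaction alternative. Cortical log2 fold changes that changed sign were those of C1ql2 (-0.038 without YB-1 replicate 2, up to 0.51 without HSP70 replicate 2) and Il16 (-0.089 after thinning). For the interaction, thinning turned Lct to 0.035 and Trpc6 to 0.10, and leaving out 1 library gave -0.31 to 0.23 for C1ql2, -0.24 to 0.079 for Lct, -0.43 to 1.36 for Dsp and -0.37 to 0.011 for Trpc6. The count of correlated pairs was 0 with RLE factors, with a prior count of 0.5 and without any 1 library. Depth limits Tdo2 everywhere and Dsp in the cortex.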
